A study of Homo sapiens with 54 samples.

Results

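The genes of cholesterol and fatty acid synthesis were followed in a B cell lymphoma line after a short pulse of interleukin 4 (IL-4). The group held 32 genes chosen by name: 20 enzymes and reductases of the sterol pathway, 6 genes of the sterol regulatory element binding protein (SREBP) switch and its targets in sterol transport, and 6 enzymes that make or desaturate fatty acids. All 32 were found among the 31835 genes of the count table by matching Ensembl identifiers to symbols, and 29 passed the filter on low counts that preceded testing. OCI-Ly1 is a B cell non-Hodgkin lymphoma line that carries the translocation typical of follicular lymphoma, and by the study's methods it also carries a variant of its own in the DNA-binding domain of STAT6. The cells had been stably transduced with Flag-tagged STAT6 cDNA under the CMV promoter, in a vector that also encodes ZsGreen, either as wild type (STAT6 WT) or with the amino acid substitutions D419G, D419N or N421K (together STAT6 MUT). Every library came from cells that received IL-4 at 10 ng/ml for 20 min, were washed and were then kept without added IL-4 for 2, 4 or 8 h. Each time point had 9 STAT6 WT libraries and 9 STAT6 MUT libraries, 3 for each mutant line, and unstimulated cells and cells without a transgene were not analysed here.

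STAT6 is the transcription factor that the IL-4 receptor activates. Cells make cholesterol from acetyl-CoA through mevalonate, farnesyl diphosphate, squalene and lanosterol, and they make fatty acids from the same acetyl-CoA. Both routes are set largely by the SREBP proteins, which SREBF1 and SREBF2 encode: when membrane sterol is low, SCAP escorts them from the endoplasmic reticulum to the Golgi, where they are cut and released to the nucleus, and when sterol is ample INSIG1 and INSIG2 hold SCAP back. SREBP proteins bind DNA weakly alone and often act beside NF-Y, a factor that binds CCAAT.

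Promoter sequences are shown for 7 members as examples: 6 that were lower at 8 h than at 2 h and hold CCAAT in the stretch shown, and SREBF2, which holds a match to TCACNCCAC. A short stretch of IDI1 is shown as an example of a STAT6-type motif upstream of a listed start. They were taken from RefSeq (GRCh38.p14), which listed a promoter, 250 bases before to 50 bases after a transcription start, for 28 of the 32 members. Each line reads 5′ to 3′ on the strand of the gene, and capitals mark CCAAT or its complement ATTGG. In SREBF2 the first capitals mark the sterol regulatory element TCACNCCAC, and in IDI1 they mark the STAT6-type motif TTCNNNNGAA.
HMGCS1 (chr5:43313513-43313662, minus strand): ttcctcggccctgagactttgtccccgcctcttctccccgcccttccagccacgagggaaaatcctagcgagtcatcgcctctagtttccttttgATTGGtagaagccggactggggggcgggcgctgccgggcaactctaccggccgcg
MVK (chr12:109573594-109573743, plus strand): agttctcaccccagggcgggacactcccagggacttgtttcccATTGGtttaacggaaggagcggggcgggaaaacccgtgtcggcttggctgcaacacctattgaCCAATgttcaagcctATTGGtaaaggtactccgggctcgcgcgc
MSMO1 (chr4:165327469-165327618, plus strand): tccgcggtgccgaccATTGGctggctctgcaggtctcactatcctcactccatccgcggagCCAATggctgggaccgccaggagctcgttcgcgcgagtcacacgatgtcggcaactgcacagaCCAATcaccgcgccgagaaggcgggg
INSIG1 (chr7:155297628-155297767, plus strand): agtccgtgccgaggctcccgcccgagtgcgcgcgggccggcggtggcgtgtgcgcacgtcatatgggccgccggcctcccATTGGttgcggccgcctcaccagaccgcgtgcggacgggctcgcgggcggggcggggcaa
STARD4 (chr5:111512596-111512735, minus strand): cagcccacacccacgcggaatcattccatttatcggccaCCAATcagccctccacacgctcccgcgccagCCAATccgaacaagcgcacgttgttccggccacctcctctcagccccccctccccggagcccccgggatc
SCD (chr10:100346983-100347132, plus strand): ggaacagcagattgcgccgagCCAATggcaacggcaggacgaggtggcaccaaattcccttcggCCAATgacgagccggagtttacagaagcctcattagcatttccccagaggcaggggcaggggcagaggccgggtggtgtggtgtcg
SREBF2 (chr22:41832905-41833054, plus strand): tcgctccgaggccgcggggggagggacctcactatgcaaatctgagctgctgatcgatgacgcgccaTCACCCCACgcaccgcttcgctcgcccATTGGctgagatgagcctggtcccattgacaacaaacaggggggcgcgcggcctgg
IDI1 (chr10:1056745-1056774, minus strand): cgccgctgggTTCTCCGGAAgccgccccac
The windows lie upstream of a listed start of the gene and, SREBF2 and IDI1 apart, outside annotated exons; the MVK window falls inside the gene as GENCODE draws it, in an intron. The SREBF2 window overlaps an exon of the antisense RNA SREBF2-AS1, and the IDI1 stretch belongs to a listed start upstream of the GENCODE gene and lies in the first exon of WDR37 on the opposite strand.

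CCAAT was present in the promoters of 18 of the 20 members with a promoter entry that were lower at 8 h than at 2 h in STAT6 WT cells. It was present in 2 of the 5 other tested members with an entry, and in 39.7% of all 27305 genes with a promoter of the same length, whether or not these cells express them. TCACNCCAC was found in SREBF2 alone among the 28 members with an entry and in 1.39% of all genes with a promoter. Other spellings of the sterol regulatory element were not searched. TTCNNNNGAA was found upstream of a listed start in IDI1 and GGPS1 and downstream in SREBF1, and in 7.80% of all genes, and the E-box CACGTG in INSIG1, LSS, SC5D and SCAP and in 8.77%. All motifs were searched on both strands; in IDI1 and NSDHL a pair of CCAAT matches overlapped each other, and matches to different motifs did not overlap in the promoters of the members. These are matches of letters in a short window, and nothing about binding was measured.

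The libraries held 161518 to 2978715 unique molecular identifiers (UMIs, each standing for a captured RNA molecule; median 885258.5). There were 8 libraries under 0.5 of the median, 6 of them STAT6 MUT. The time points were placed in different rows of the plate, so time and plate row cannot be told apart. By the study's methods the cells were replated after the wash. Time after IL-4 and time after wash and replating therefore cannot be told apart either, and no library came from before the pulse. All 7 B cell markers were detected, with 599 to 10610 UMIs per library, whereas myeloid and erythroid markers gave 0 to 3 UMIs and fibroblast markers 0 to 1; of the T cell list, CD3G had 2 UMIs in all libraries and TRAC a median of 28 per library. Levels are given as CPM, the count of a gene scaled to the total of its library, after normalisation by the trimmed mean of M values (TMM), and changes as log2 fold changes ± SE. A gene was called where edgeR's quasi-likelihood test gave a Benjamini-Hochberg adjusted p below 0.05 over all genes tested. The labels name the replicates biological but do not say how many transductions gave rise to each line, so p-values measure the spread between these libraries.

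The first question was how the pathway moved in the hours after the pulse. Most of it fell. In STAT6 WT cells 23 of 29 tested members were lower at 8 h than at 2 h, against 13.3% of all 9507 genes tested, and 2 were higher, against 14.3%. The median change of the members was -0.72, against 0.0034 over all genes. In STAT6 MUT cells 21 members were lower (background 17.1%) and 2 were higher (background 16.7%), with a median of -0.73 against 0.002 over all genes. Fewer cells expressing a gene and less RNA per cell cannot be told apart in these bulk libraries.

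Summed over the group, the members took 0.342% (range 0.314 to 0.355) of the UMIs of a STAT6 WT library at 2 h, 0.248% (range 0.231 to 0.264) at 4 h and 0.225% (range 0.209 to 0.255) at 8 h. The corresponding STAT6 MUT shares were 0.357% (range 0.305 to 0.373), 0.276% (range 0.245 to 0.317) and 0.237% (range 0.211 to 0.294). In both genotypes the ranges at 2 h and 8 h did not overlap, and the step from 2 h to 4 h was larger than the step from 4 h to 8 h in the medians. Heat shock genes moved the other way over the same hours: their summed share had a median of 0.586% at 2 h, 0.748% at 4 h and 0.954% at 8 h in STAT6 WT cells, with 12 of 13 tested heat shock genes higher at 8 h. In STAT6 MUT cells 10 of 13 were higher, and the share rose from a median of 0.600% to 0.899%. The part of this change in the results on sterol genes was not tested. Mitochondrially encoded RNA had median shares of 3.03% at 2 h and 2.94% at 8 h in STAT6 WT cells and 3.12% and 2.97% in STAT6 MUT cells, and 1 of its 13 genes was lower at 8 h in STAT6 WT cells and 8 in STAT6 MUT cells; its part in the results was not tested either.

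The enzymes of the early sterol pathway showed some of the largest falls. HMGCS1 (chr5:43287470-43313512, GRCh38) encodes the cytosolic synthase that condenses acetyl-CoA units into the precursor of mevalonate. In STAT6 WT libraries its lowest, median and highest levels were 165, 203 and 218 CPM at 2 h, 70.0, 83.5 and 116 CPM at 4 h and 59.4, 76.1 and 114 CPM at 8 h. All libraries of 4 h and of 8 h lay below all libraries of 2 h. HMGCS1 fell by 1.12 ± 0.092 on the log2 scale from 2 h to 4 h (edgeR's quasi-likelihood test, adjusted p = 2.76e-17) and by 1.39 ± 0.093 from 2 h to 8 h (adjusted p = 1.14e-22).

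MVK (chr12:109573255-109598125) phosphorylates mevalonate and was a low-count gene. Its lowest, median and highest levels in STAT6 WT libraries were 18.2, 26.9 and 31.1 CPM at 2 h, 6.32, 9.54 and 21.1 CPM at 4 h and 5.69, 11 and 13.9 CPM at 8 h. Libraries of 2 h and 8 h did not overlap, although the lowest level at 8 h rested on 2 UMIs. The change from 2 h to 8 h was -1.27 ± 0.18 (edgeR's quasi-likelihood test, adjusted p = 3.59e-08). In STAT6 MUT cells MVK changed by -1.41 ± 0.20, with an overlap between the times, and the shallowest library, D419N replicate 3 at 8 h, had a count of 0.

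IDI1 (chr10:1039152-1049119), which interconverts the isoprenoid building blocks, had lowest, median and highest levels of 180.4, 243 and 279 CPM at 2 h, 121, 139 and 180.3 CPM at 4 h and 109, 122 and 147 CPM at 8 h in STAT6 WT cells. Neither later time overlapped with 2 h; in STAT6 WT cells the highest library of 4 h lay only just under the lowest of 2 h. From 2 h to 8 h IDI1 fell by 1.03 ± 0.077 on the log2 scale (edgeR's quasi-likelihood test, adjusted p = 6.23e-20). Of the neighbouring steps, MVD (-0.84), FDPS (-0.51) and ACAT2 (-0.62) were lower at 8 h, while PMVK (0.19) and GGPS1 (0.03) were not called. GGPS1 feeds protein prenylation rather than sterol.

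Among the enzymes that commit farnesyl diphosphate to squalene and turn squalene into cholesterol, the changes from 2 h to 8 h in STAT6 WT cells ran from -0.41 for EBP, the sterol isomerase, to -1.09 for MSMO1. FDFT1, which makes squalene, changed by -0.88, SQLE, which oxidises it, by -0.86, and LSS, which closes the ring, by -0.72. All of TM7SF2, MSMO1, NSDHL, HSD17B7, EBP, SC5D and DHCR7, which finish the molecule, were lower in STAT6 WT cells, and all but NSDHL in STAT6 MUT cells. LBR, which carries a sterol reductase domain on a protein that anchors chromatin to the nuclear envelope, was higher at 8 h by 0.27 ± 0.072 in STAT6 WT cells and 0.27 ± 0.077 in STAT6 MUT cells. In all, 16 of 19 tested sterol enzymes were lower at 8 h in STAT6 WT cells and 15 in STAT6 MUT cells.

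MSMO1 (chr4:165327667-165343164), the oxidase that starts removal of the methyl groups at carbon C-4 of the sterol ring, was lower at 4 h than at 2 h. In STAT6 WT libraries its lowest, median and highest levels were 56.1, 74.3 and 81.0 CPM at 2 h, 22.3, 24.4 and 33.2 CPM at 4 h and 26.2, 36.1 and 45.8 CPM at 8 h. All 9 libraries of 4 h lay below all of 2 h, and 6 of 9 libraries of 8 h lay above all of 4 h. From 2 h to 4 h MSMO1 fell by 1.47 ± 0.15 on the log2 scale (edgeR's quasi-likelihood test, adjusted p = 1.31e-12), and the change from 4 h to 8 h was 0.38 ± 0.18, which was not called (adjusted p = 0.222).

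Of the 5 tested genes of the SREBP switch and its sterol transport target, 4 (INSIG1, SREBF1, SREBF2 and STARD4) were lower at 8 h in both genotypes and SCAP was higher. INSIG1 (chr7:155297776-155310235) encodes the retention protein and is itself a target of SREBP. Its lowest, median and highest levels in STAT6 WT libraries were 155, 206 and 265 CPM at 2 h, 65.4, 78.1 and 104 CPM at 4 h and 56.6, 71.1 and 102 CPM at 8 h. The libraries of 2 h lay above all later ones. By 8 h INSIG1 fell by 1.59 ± 0.11 on the log2 scale, the largest change among the members tested in STAT6 WT cells (edgeR's quasi-likelihood test, adjusted p = 9.36e-22). In STAT6 MUT libraries INSIG1 had 152, 211 and 316 CPM at 2 h, 70.7, 89.4 and 117 CPM at 4 h and 60.3, 83.4 and 136 CPM at 8 h, again with no overlap between 2 h and the later times, and changed by -1.46 ± 0.12 by 8 h.

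STARD4 (chr5:111496033-111512590), a carrier of sterol between membranes, had 27.6, 34.7 and 41.2 CPM at 2 h, 10.1, 14.8 and 22.5 CPM at 4 h and 9.87, 15.9 and 25.6 CPM at 8 h as lowest, median and highest STAT6 WT levels. Both later times lay wholly below 2 h, and the change to 8 h was -1.13 ± 0.15 (edgeR's quasi-likelihood test, adjusted p = 3.68e-09).

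SREBF1 (chr17:17810399-17837002) and SREBF2 (chr22:41833105-41907306) encode the transcription factors. SREBF1 had 39.3, 66.1 and 80.9 CPM at 2 h, 29.7, 37.3 and 47.3 CPM at 4 h and 28.8, 38.3 and 51.8 CPM at 8 h, the time points overlapping through a low library of 2 h. SREBF2 had 185, 206 and 243 CPM at 2 h, 129, 165 and 173 CPM at 4 h and 118, 134 and 171 CPM at 8 h, with the 2 h libraries above all later ones. From 2 h to 8 h SREBF1 changed by -0.85 ± 0.11 and SREBF2 by -0.65 ± 0.072, both called.

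SCAP, the escort, was higher at 8 h by 0.32 ± 0.12 in STAT6 WT cells and 0.42 ± 0.13 in STAT6 MUT cells, the former call being lost in 10 of 18 alternative analyses. INSIG2 could not be tested: its median count was 7 UMIs, and its median level lay between 5.87 and 8.93 CPM in the 6 groups.

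The fatty acid enzymes split. SCD (chr10:100347233-100364826), the desaturase that makes oleate, had lowest, median and highest levels of 137, 174 and 202 CPM at 2 h, 103, 125 and 133 CPM at 4 h and 63.8, 69.1 and 102 CPM at 8 h in STAT6 WT libraries. It was the member whose libraries separated at both steps, with all of 4 h below all of 2 h and all of 8 h below all of 4 h. The changes were -0.50 ± 0.084 from 2 h to 4 h and -0.77 ± 0.096 from 4 h to 8 h (edgeR's quasi-likelihood test, adjusted p = 4.90e-06 and 5.91e-09).

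FADS2 (chr11:61792980-61867354), which desaturates polyunsaturated fatty acids, had 64.8, 87.1 and 102 CPM at 2 h, 25.6, 41.3 and 59.8 CPM at 4 h and 23.9, 27.7 and 34.7 CPM at 8 h. The STAT6 WT libraries of 8 h lay below all of 2 h, and the change was -1.54 ± 0.12 (edgeR's quasi-likelihood test, adjusted p = 1.88e-18). In STAT6 MUT cells FADS2 changed by -1.36 ± 0.13 and SCD by -1.12 ± 0.091. FASN and ACLY, which build palmitate and its acetyl-CoA, were not called in either genotype: FASN changed by -0.20 ± 0.10 in STAT6 WT cells and -0.13 ± 0.11 in STAT6 MUT cells, and ACLY by -0.069 ± 0.075 and -0.19 ± 0.081. FADS1 overlaps FADS2 on the opposite strand, and whether counting used strand was not given in the sources used here; it changed by -0.60 in STAT6 WT cells, where it was called, and by -0.22 in STAT6 MUT cells.

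The time points were not evenly spaced, and the steps between them differed in size. From 2 h to 4 h, 20 members were lower in STAT6 WT cells (background 5.33%) and 16 in STAT6 MUT cells (background 3.89%). From 4 h to 8 h the numbers were 6 lower members in STAT6 WT cells (background 1.78%) and 12 in STAT6 MUT cells (background 6.15%). The 6 were SCD, FADS2, FDFT1, MVD, DHCR7 and SREBF2, with changes from -0.77 to -0.25, and PMVK was the member that was higher, by 0.36 ± 0.08 (background for higher genes 2.71%). The 12 were these 6 members together with ACAT2, EBP, FDPS, HMGCS1, HSD17B7 and IDI1. Without the libraries of replicate 1, or without the N421K line, 3 members were called in place of 12.

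In STAT6 WT cells 11 members had all 9 libraries of 4 h below all 9 of 2 h, against 0.778% of genes tested, and 16 members had all of 8 h below all of 2 h, against 1.53%. In STAT6 MUT cells, where 3 lines were mixed, the numbers were 5 (background 0.358%) and 7 (background 1.7%). From 4 h to 8 h the libraries of SCD alone separated in STAT6 WT cells (background 0.221%).

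A comparison added after the data were seen asked whether 4 h lay off the midpoint of 2 h and 8 h, over both genotypes. The midpoint was that of the log2 levels and not of time, so rates per hour were not compared. It called 9 members, all below the midpoint (background 2.72%), and it called 5 without the libraries of replicate 2. The members furthest below were MSMO1 (-0.67 ± 0.10), INSIG1 (-0.58 ± 0.076), STARD4 (-0.52 ± 0.11), MVK (-0.49 ± 0.13) and SQLE (-0.40 ± 0.048). HMGCS1, SREBF1, IDI1 and PMVK were called with smaller departures, that of PMVK being lost in 8 of 21 alternatives. For SCD (-0.0038 ± 0.058), FADS2 (0.0022 ± 0.068) and SREBF2 (0.022 ± 0.046) the departure was not called.

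**Figure D1:**
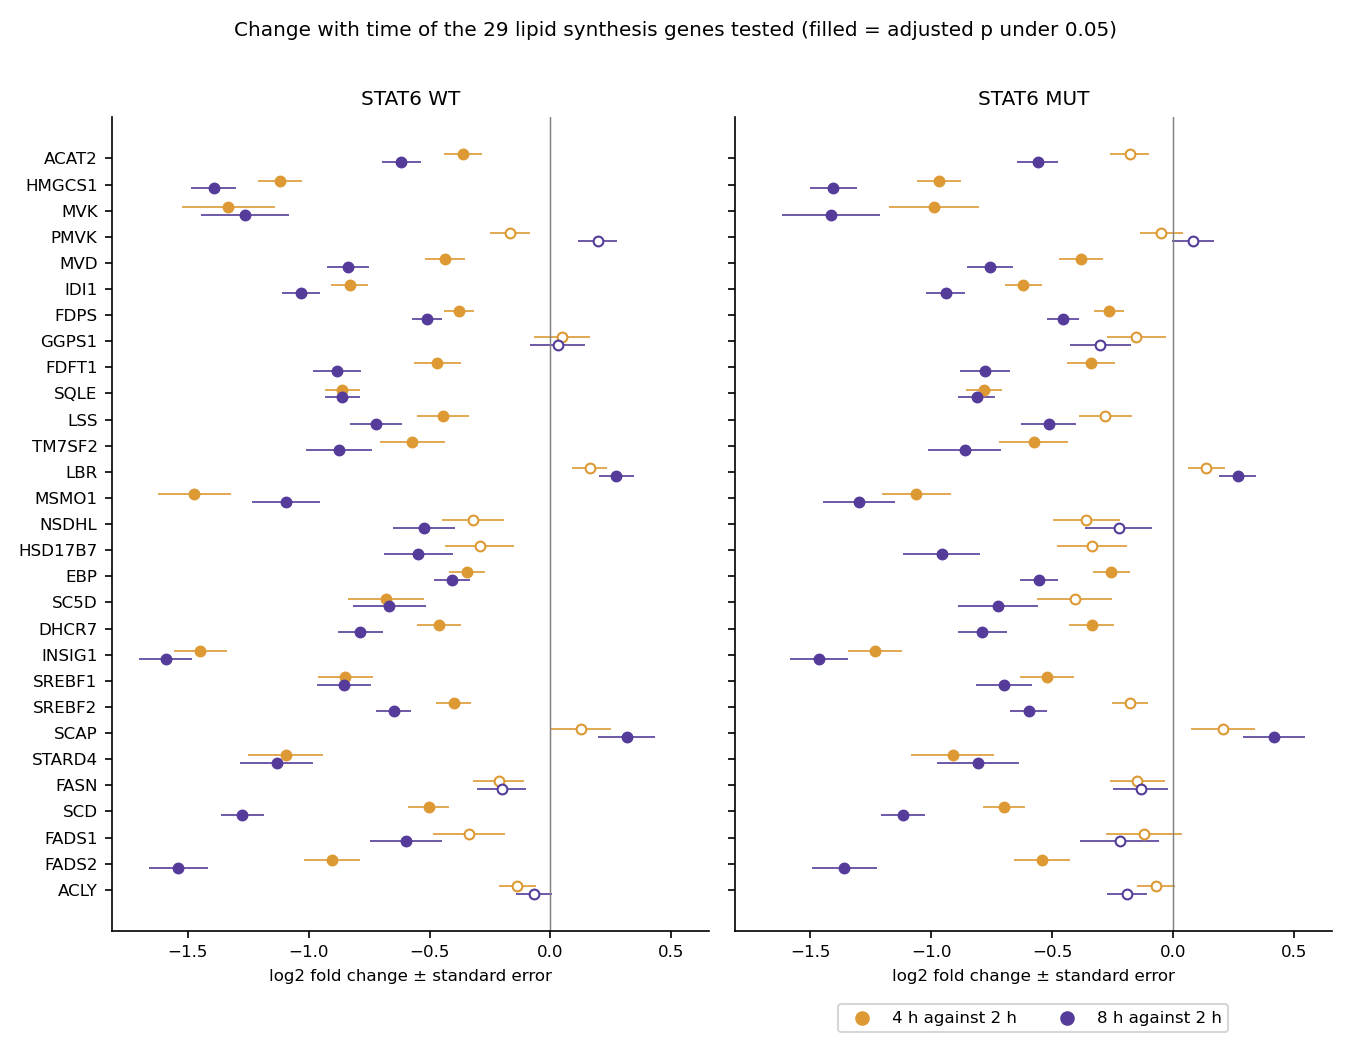
Log2 fold changes of the tested members from 2 h to 4 h and from 2 h to 8 h in STAT6 WT and STAT6 MUT cells, ordered by role. Points are estimates of the edgeR model and bars are SE; filled points were called. INSIG1, HMGCS1, FADS2, SCD, MVK and MSMO1 lie below -1 at 8 h in both genotypes, and LBR and SCAP lie above 0.

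The second question was whether the mutant lines differed from STAT6 WT. The largest difference called over all times was 0.38, for MSMO1, beside changes with time of down to -1.59. With time as a covariate, 5 members were higher in STAT6 MUT (background 6.74% of 9261 genes) and 1 was lower (background 6.62%). The median over the 29 members was 0.093, against 0.0012 over all genes, and 23 of 29 estimates were above 0. Of the 8 libraries under 0.5 of the median depth 6 were STAT6 MUT, and without these 8 libraries 6 members were called. Over all alternatives the count ran from 2, with a replicate block, to 8. Among the 7 B cell markers BCL6 was higher (0.40) and CD22, CD74, CD79A and CD79B were lower in the same comparison. The part of such differences between the lines in the values of the members was not tested.

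MSMO1 had the largest difference between genotypes among the members called. At 2 h its lowest, median and highest levels were 63.6, 94.7 and 129.7 CPM in STAT6 MUT against 56.1, 74.3 and 81.0 CPM in STAT6 WT, and 6 of 9 STAT6 MUT libraries lay above all STAT6 WT libraries. At 4 h it had 28.9, 44.2 and 96.0 CPM against 22.3, 24.4 and 33.2 CPM, with 8 of 9 above. At 8 h it had 21.4, 34.2 and 111 CPM against 26.2, 36.1 and 45.8 CPM, and the groups overlapped broadly. The highest STAT6 MUT libraries were D419G replicates 2 and 3 at 4 h (92.4 and 96.0 CPM) and D419N replicate 3, the shallowest library, and N421K replicate 2 at 8 h (111 and 95.9 CPM). D419G replicate 3 was the shallowest library of 4 h, with 175878 UMIs in all and 17 for MSMO1. It also gave the highest STAT6 MUT levels of HMGCS1 and SREBF2 at 4 h, on 22 and 42 UMIs. The difference between genotypes for MSMO1 was 0.38 ± 0.09 over all times (edgeR's quasi-likelihood test, adjusted p = 0.00114), 0.75 ± 0.16 at 4 h (adjusted p = 0.00175) and 0.14 ± 0.18 at 8 h, where it was not called (adjusted p = 0.804).

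HMGCS1 and IDI1, both early in the pathway, were higher in STAT6 MUT at 4 h. HMGCS1 had 96.3, 116 and 124 CPM in STAT6 MUT, and 9 of 9 libraries lay above the STAT6 WT median, 4 of them, the 3 of D419G and N421K replicate 3, above all STAT6 WT libraries. IDI1 had 145, 175 and 218 CPM, again with 9 of 9 above the STAT6 WT median and 3 above all. At 2 h the STAT6 MUT levels were 149.6, 221 and 287 CPM for HMGCS1 and 241, 266 and 311 CPM for IDI1. At 8 h they were 70.0, 73.5 and 129 CPM and 116, 149 and 178 CPM, with overlap of the genotypes for both genes at every time. Over all times HMGCS1 was higher by 0.20 ± 0.056 and IDI1 by 0.21 ± 0.046 (edgeR's quasi-likelihood test, adjusted p = 0.00853 and 4.36e-04). The call for HMGCS1 at 4 h (0.30 ± 0.089) was lost in 11 of 21 alternatives.

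SREBF1 had 38.4, 74.8 and 92.8 CPM at 2 h, 38.6, 53.9 and 68.4 CPM at 4 h and 30.3, 46.9 and 64.4 CPM at 8 h in STAT6 MUT. At 4 h all 9 STAT6 MUT libraries lay above the STAT6 WT median and 7 above all STAT6 WT libraries, whereas at 2 h the genotypes overlapped widely. The difference was 0.28 ± 0.068 over all times and 0.47 ± 0.12 at 4 h (edgeR's quasi-likelihood test, adjusted p = 0.00202 and 0.0119). SREBF2, at 164, 207 and 231 CPM, 153, 178 and 237 CPM and 113, 139 and 164 CPM over the same times, differed by 0.064 ± 0.044, which was not called (adjusted p = 0.38).

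SCD was higher in STAT6 MUT at 2 h and 8 h. Its lowest, median and highest STAT6 MUT levels were 167, 198 and 243 CPM at 2 h, 92.4, 121 and 181 CPM at 4 h and 60.6, 100.2 and 124 CPM at 8 h. At 8 h, 8 of 9 STAT6 MUT libraries lay above the STAT6 WT median, and at 4 h 4 of 9 did. SCD differed by 0.28 ± 0.075 at 2 h, by 0.084 ± 0.09 at 4 h and by 0.45 ± 0.096 at 8 h (edgeR's quasi-likelihood test, adjusted p = 0.0091, 0.747 and 0.00558).

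PMVK (chr1:154924740-154936719), the kinase that follows MVK in the mevalonate pathway, was the member that was lower in STAT6 MUT. At 2 h it had 99.1, 124 and 151 CPM in STAT6 MUT against 128, 159.9 and 180.4 CPM in STAT6 WT. At 4 h the values were 96.7, 128 and 156 CPM against 98.0, 128 and 181 CPM, and at 8 h 118, 135 and 153 CPM against 155, 173 and 182 CPM. All 9 STAT6 MUT libraries of 8 h lay below all 9 STAT6 WT libraries, a separation that 0.0526% of 9507 genes showed in this direction, whereas at 4 h the genotypes overlapped throughout. The difference was -0.28 ± 0.068 at 8 h and -0.18 ± 0.049 over all times (edgeR's quasi-likelihood test, adjusted p = 0.0176 and 0.00769).

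Counts at single time points were small. At 2 h MSMO1 and SCD were called, both higher (background 3.92%). At 2 h 4 of 13 mitochondrially encoded genes were also higher in STAT6 MUT and all 13 estimates were above 0, with a median of 0.17; the part of this in the results at 2 h was not tested. At 4 h the members called were HMGCS1, IDI1, MSMO1 and SREBF1, all higher (background 1.96%), and at 8 h SCD was higher and PMVK lower (background 0.852% and 0.591%). The count of 2 calls at 2 h fell to 0 without the D419G line, the N421K line or replicate 3 and to 1 without replicate 4, and the count of 4 at 4 h to 1 without the N421K line or replicate 1 and to 2 without the D419G line or replicate 2. The count of 2 at 8 h fell to 0 without replicate 3 and to 1 without the D419G line, the D419N line or replicate 2.

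Whether the genotype difference changed with time was tested directly. The interaction of genotype and time called 0 of 29 members with edgeR (background 0.957%), and DESeq2 and limma-voom also called 0. SCD and MSMO1 had an unadjusted p below 0.05, and the lowest adjusted p was 0.376, for SCD. A difference between the time courses of the genotypes was therefore not shown for any member.

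**Figure D2:**
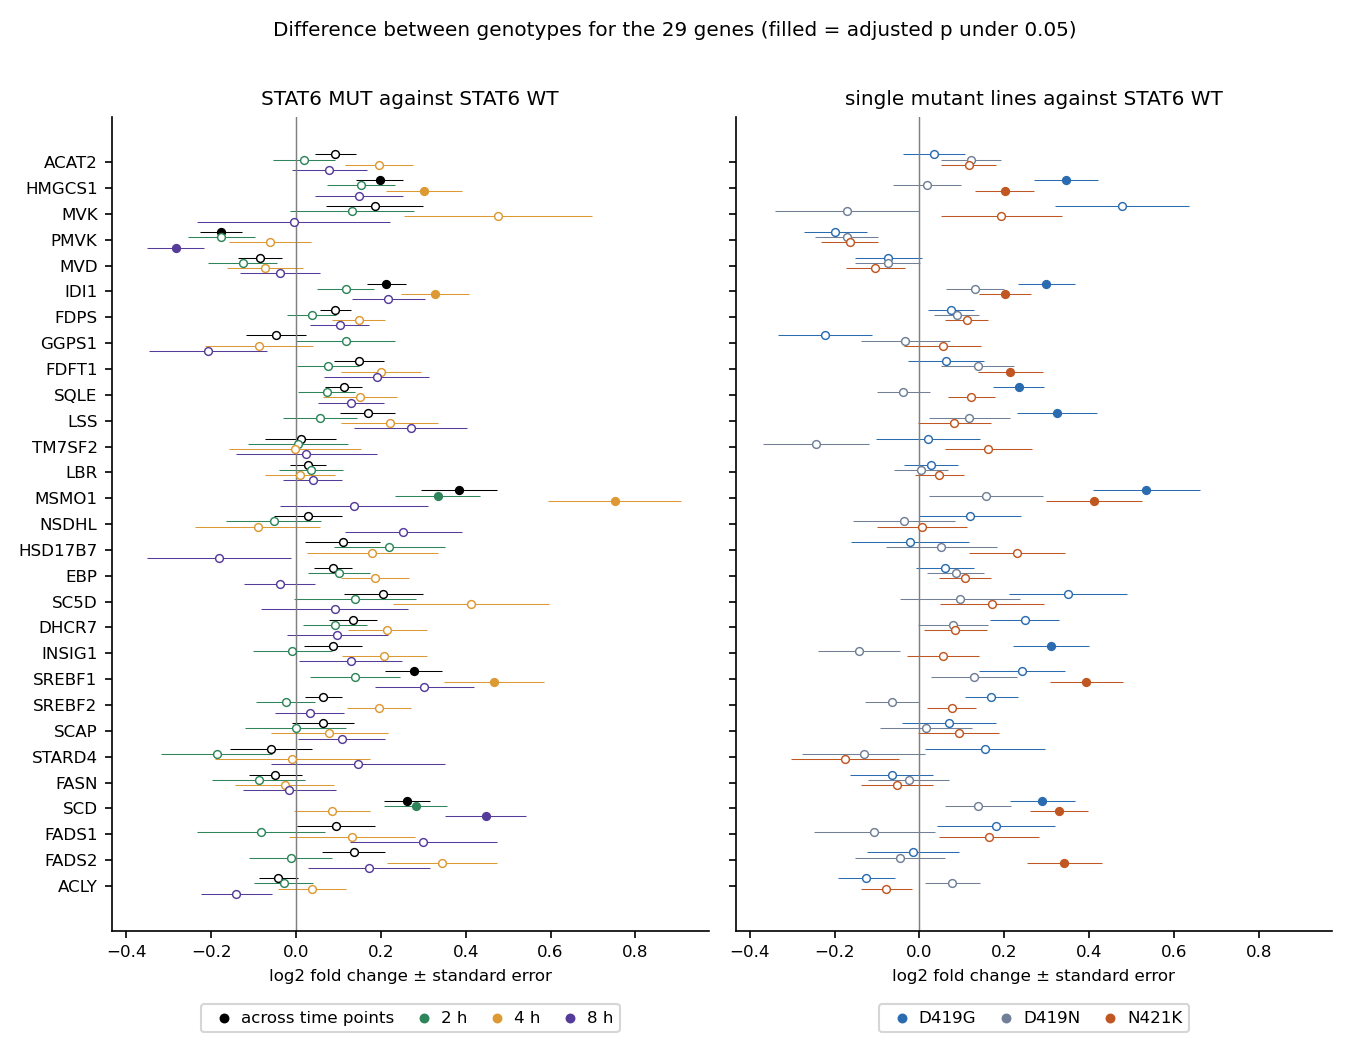
Log2 differences of STAT6 MUT from STAT6 WT for the tested members, over all times and at each time point (left), and of each mutant line from STAT6 WT (right), ordered by role. Points are estimates of the edgeR models, bars are SE and filled points were called. MSMO1 stands highest at 4 h (0.75), and PMVK is below 0 at every time.

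The mutant lines were also compared with STAT6 WT separately, in a model in which ACACA passed the filter as well, so that 30 members were tested. D419G had 7 members higher (background 3.16% of 9706 genes): MSMO1 (0.53 ± 0.13), HMGCS1 (0.35 ± 0.076), LSS (0.32 ± 0.094), INSIG1 (0.31 ± 0.09), IDI1 (0.30 ± 0.067), SCD (0.29 ± 0.077) and SQLE (0.23 ± 0.06). N421K also had 7 members higher (background 6.76%), of which MSMO1 (0.41 ± 0.11), HMGCS1, IDI1 and SCD were shared with D419G and SREBF1 (0.39 ± 0.086), FADS2 (0.34 ± 0.088) and FDFT1 (0.21 ± 0.077) were not. The N421K calls of FDFT1 and HMGCS1 were each lost in 11 of 20 alternatives. D419N had 0 members called by edgeR, DESeq2 or limma-voom (background 2.75%), 1 member (PMVK) had an unadjusted p below 0.05, and MSMO1 stood at 0.16 ± 0.13, with a 95% interval of -0.10 to 0.42. Without the libraries of replicate 3, 2 members were called in D419G and 2 in N421K, without those of replicate 1 there were 4 in D419G, and with the libraries of a line and replicate number summed over the 3 times there was 1 call in D419G and 4 in N421K.

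The lines were set against each other by a joint test, since a call in a line and none in another does not show that they differ. It called 1 member, INSIG1 (background 2.39%), and 8 members had an unadjusted p below 0.05. INSIG1 at 2 h had 254, 192 and 316 CPM in D419G, 157, 221 and 152 CPM in D419N and 211, 179.7 and 231 CPM in N421K, in the order of the replicate numbers. At 4 h it had 117, 116 and 102 CPM in D419G, 70.7, 89.4 and 85.3 CPM in D419N and 96.0, 82.6 and 73.4 CPM in N421K. The D419G libraries lay above the others, but replicate 3 was the shallowest library of 4 h and its 102 CPM rested on 18 UMIs. At 8 h the lines overlapped, with 60.3, 74.4 and 98.0 CPM in D419G, 61.2, 86.6 and 99.8 CPM in D419N and 61.0, 136 and 83.4 CPM in N421K. The differences from STAT6 WT were 0.31 ± 0.09 for D419G, -0.14 ± 0.096 for D419N and 0.056 ± 0.084 for N421K (joint test by edgeR, adjusted p = 0.0402). INSIG1 was not called with DESeq2, which called 1 other member, with plate row in the model, with summed libraries, without the libraries of replicate 1, when 1 other member was called, or without those of replicate 3; its adjusted p over the alternatives ran from 0.00422 to 0.543.

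Some members could not be followed well. CYP51A1, the lanosterol demethylase, had 53 UMIs in all 54 libraries, with 23 libraries at 0, and overlaps AKAP9 on the opposite strand, which had 10640 UMIs. INSIG2 and ACACA, the carboxylase that starts fatty acid synthesis, had median counts of 7 and 8 UMIs. ACAT2 lies against TCP1 on the opposite strand (8060 and 14439 UMIs), and its values are uncertain to the extent that strand was not used in counting.

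Other genes of lipid handling were listed for comparison: 68 genes of fatty acid synthesis, isoprenoid use, SREBP processing, trafficking and storage, efflux and beta-oxidation, of which 66 had a row in the table and CH25H and ME1 were not analysed here. In STAT6 WT cells 14 of 57 tested genes were called between 2 h and 8 h, 5 higher and 9 lower, against 14.3% higher and 13.3% lower over all genes. The largest changes called there were those of SLC25A20 (0.70 ± 0.15), which carries acylcarnitine into mitochondria, SOAT1 (0.58 ± 0.14), which esterifies cholesterol for storage, FADS3 (0.57 ± 0.098), a member of the desaturase family, and SLC25A1 (-0.48 ± 0.092), which exports the citrate used for lipid synthesis. Of the 6 tested genes of SREBP processing, 4 were lower, beside the same 13.3%. In STAT6 MUT cells 7 of the 57 genes were higher and 7 lower (16.7% and 17.1% over all genes). ABCG1, which exports cholesterol from cells, was named after its values were seen. It changed by -1.26 ± 0.29 in STAT6 MUT cells (edgeR's quasi-likelihood test, adjusted p = 3.53e-04). In STAT6 WT cells it changed by -0.30 ± 0.24 and was not called (same test, adjusted p = 0.361). The interaction of genotype and time was not called for it (same test, adjusted p = 0.386). Its counts were low, with medians over all times of 6 UMIs in STAT6 MUT and 7 in STAT6 WT, and a lowest STAT6 MUT count of 0.

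Between genotypes 11 of 57 were called over all times, 7 higher and 4 lower in STAT6 MUT, against 6.74% higher and 6.62% lower over all genes. SCARB1, a receptor for high-density lipoprotein, was lower in STAT6 MUT (-0.77 ± 0.15), as was ACSL1, which activates long-chain fatty acids (-0.65 ± 0.13). Their counts were low, with medians of 5 UMIs in STAT6 MUT and 11 in STAT6 WT for SCARB1 and 6 and 10 for ACSL1. By line, SCARB1 was called in N421K (-1.17 ± 0.21) and not in D419G (-0.69 ± 0.23) or D419N (-0.41 ± 0.21). FADS3 (-0.38) and GRAMD1A (-0.31), which moves cholesterol from the plasma membrane to the endoplasmic reticulum, were also lower. NPC2, which hands cholesterol out of lysosomes, was higher by 0.38 ± 0.084, and SOAT1 by 0.29 ± 0.084. FBXW7 (0.19), part of the ligase that marks nuclear SREBP for degradation, was higher as well. The beta-oxidation genes HADHB (0.37), ACAA2 (0.17) and HADHA (0.12) and the carrier SLC25A1 (0.17) made up the rest; HADHA lost its call in 19 of 23 alternatives and SLC25A1 in 11.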

How the data were processed

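RNA of OCI-Ly1 cells was made into 54 prime-seq libraries, which count the 3′ ends of transcripts by unique molecular identifiers. The deposited table holds raw UMI counts per Ensembl gene, which the authors made with a Drop-seq pipeline; the build hg38 comes from the submitters' processing notes, and the aligner, annotation and use of strand were not given in the sources used here. Symbols were found for 30959 of 31835 genes. All 54 columns were used.

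Groups followed the labels. edgeR 4.0.16 (R 4.3.3; TMM, filterByExpr, quasi-likelihood F test, Benjamini-Hochberg adjustment over all genes tested, threshold 0.05) was fitted with time as a covariate for STAT6 MUT against STAT6 WT, to the libraries of each time point, to the 4 lines, and to the 6 groups of genotype and time for the time contrasts and the interaction. DESeq2 1.42.0, limma-voom (limma 3.58.1), other filters and normalisations, added plate rows, a random effect of line and replicate, libraries summed over time points, and the omission of lines, replicates or shallow libraries were alternatives. On simulated counts the genotype fit recovered 88 of 93 genes changed by 0.5 on the log2 scale with 6 false calls among 9230 genes. The 8 h against 2 h fit in STAT6 WT recovered 59 of 92 with 12 false calls among 9490. The simulation gave all mutant lines the same change. Changes below 0.5, as called between genotypes over all times, were not simulated, so recovery at those sizes is not known.

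Members, lists and tests were chosen with earlier results of these data known. Values are given for members called between genotypes, for the 6 with the largest change from 2 h to 8 h in STAT6 WT and for the INSIG and SREBF genes; other lipid genes are named where called between genotypes over all times or among the 4 largest changes from 2 h to 8 h. No interval was computed for single counts, and precision is limited by depth.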

Additional observations from a re-analysis of the deposited data

Results flagged for a closer look

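Some STAT6 WT libraries stood apart from the other 8 of their time point by Dixon's criterion, which flags about 1 in 20 groups by chance; 5 of 66 groups of 9 were flagged over 11 genes. At 8 h, replicate 2 was highest for HMGCS1 (114 CPM against a median of 76.1 CPM, 40 UMIs) and SREBF2 (171 CPM against 134 CPM, 60 UMIs) and lowest for MVK (5.69 CPM against 11 CPM, 2 UMIs). These flags came from the same library, the shallowest STAT6 WT library of 8 h (357395 UMIs). At 4 h, replicate 7 was highest for IDI1 (180.3 CPM against 139 CPM, 155 UMIs). At 2 h, replicate 5 was lowest for SREBF1 (39.3 CPM against 66.1 CPM, 20 UMIs).

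INSIG1 was called among the 3 mutant lines in the joint test (edgeR, adjusted p = 0.0402). Its differences from STAT6 WT were 0.31 in D419G, -0.14 in D419N and 0.056 in N421K. The call of the joint test was lost with DESeq2, with plate row in the model, with summed libraries and when some single replicates were left out.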

How the results depend on the processing

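The counts of members called between time points kept within 1.5 times of those reported in all alternatives but 3 (8 h against 4 h in STAT6 MUT without N421K, with 3 called, or without replicate 1, with 3; and the midpoint comparison without replicate 2, with 5). Leaving out each replicate in turn gave 20 to 21 members for 4 h against 2 h in STAT6 WT, 5 to 8 for 8 h against 4 h, 24 to 26 for 8 h against 2 h, and in STAT6 MUT 11 to 16, 3 to 12 and 23 to 23, and 5 to 9 for the midpoint. For STAT6 MUT against STAT6 WT it gave 5 to 6 over all times, 0 to 2 at 2 h, 1 to 4 at 4 h and 0 to 3 at 8 h; for the lines 2 to 9 in D419G, 0 to 0 in D419N, 2 to 8 in N421K and 0 to 2 in the joint test; and 0 to 0 for the interaction.

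Genotype calls were less stable. At 2 h there was 1 call with DESeq2, 1 with limma-voom, 0 without D419G and 0 without N421K; at 4 h, 2 without D419G and 1 without N421K; at 8 h, 1 without D419G and 1 without D419N. Summed libraries gave 1 call in D419G, 4 in N421K and 0 in the joint test, which had 2 without a count filter, 2 without the shallow libraries and 0 with plate rows. Without the 8 shallow libraries there were 6 calls over all times, 2 at 2 h, 3 at 4 h and 2 at 8 h. The cause was not tested.

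The labels do not say whether the replicate numbers pair the samples. After subtraction of group means, 6 of 54 pairs of the same number and time in different lines correlated above 0.1 (median -0.0020, highest 0.21). Of 54 pairs of the same line and number at different times, 4 did (median -0.0054, highest 0.25). No reference for unpaired samples was set, so pairing was not excluded. With replicate number as a block the genotype calls numbered 2 over all times, 0 at 2 h, 1 at 4 h and 0 at 8 h. There were 4 in D419G and 4 in N421K. In the time contrasts, the interaction and the midpoint comparison the block was line and replicate number together. Their counts, and those of D419N and the joint test, moved by less than 1.5 times. Replicate numbers ran from 1 to 3 in each mutant line and from 1 to 9 in STAT6 WT. The genotype difference within a block of replicate number therefore came from numbers 1 to 3 alone, without most STAT6 WT libraries. Likewise, leaving out a number above 3 removed STAT6 WT libraries only.

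Of the values of single genes under the alternatives, 3719 kept their direction and side of the threshold, 288 lost the call, 5 gained it and 13 changed sign, none of the last being called in the reported comparison. SREBF1 at 2 h ran from -0.014 (without replicate 3) to 0.30 (without replicate 1) over the replicates left out and was -0.035 without N421K. SCD at 4 h was -0.018 with the replicate block, -0.052 without N421K and between -0.069 (without replicate 1) and 0.18 (without replicate 2) over the replicates left out. MSMO1 at 8 h was -0.032 without the shallow libraries and between -0.011 (without replicate 3) and 0.31 (without replicate 1) over the replicates left out. HMGCS1 in D419N was -0.0055 with limma-voom, -0.014 without the shallow libraries, -0.0034 with the random effect and between -0.061 (without replicate 2) and 0.062 (without replicate 1) over the replicates left out. Over the same omissions INSIG1 ran from -0.23 (without replicate 2) to 0.0047 (without replicate 1) in D419N and from -0.026 (without replicate 3) to 0.10 (without replicate 2) in N421K. Depth limits CYP51A1, INSIG2 and ACACA, and MVK at 8 h. No alternative of any kind moved the median log2 fold change of all genes by more than 0.0687.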
